A study of Mus musculus with 28 samples.

Results

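The proteasome subunit genes are the rows of the expression table whose symbol is Psma to Psmg followed by a number, without the 3 immunoproteasome genes Psmb8, Psmb9 and Psmb10. They are 45 of the 53801 features listed. Of them, 16 belong to the 20S core, with 8 Psma genes of the α rings and 8 Psmb genes of the β rings. The regulatory particle genes (Psmc, Psmd and Psme) number 24, and Psmf1 and 4 Psmg genes make up the other 5. All 45 matched 1 protein-coding gene of the GRCm38 annotation by symbol. Among the symbols left out by the rule are 4 pseudogenes of Psmb5, Psmb6 and Psmb7 and the gene Psme2b, each with a row of its own. Reads of Psmb5, Psmb6, Psmb7 and Psme2 could be split with such near-identical sequence, so their values are uncertain to that extent.

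The proteasome is the protease that degrades proteins tagged with ubiquitin. Its barrel-shaped 20S core holds the proteolytic sites inside the β rings, while the α rings form the gate through which a substrate enters. The 19S regulatory particle binds ubiquitin chains, removes them and unfolds the substrate with a ring of ATPases, and the 11S cap of Psme1 and Psme2 opens the gate without ATP. In T cells the proteasome also turns over inhibitors of NF-κB signaling and supplies peptides for antigen presentation.

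Treg cells (TCR+CD4+CD25hiCD127lo, with CD8+ cells gated out) were sorted from spleens and tumors of C57BL/6 mice that carried CT2A, a murine GBM cell line implanted in the forebrain. Mice received IgG2a, the isotype control, or αPD1 + αGITR, which combines an antibody to the inhibitory receptor PD1 with an agonistic antibody to GITR, as 4 doses of 250 µg per mouse every 3 days from a tumor volume of 2 mm3, and tissue was taken 2 days after the last dose. All groups carried tumors, so no group shows Treg cells of tumor-free mice, and the sort used surface proteins and not FoxP3 itself. The libraries are bulk Smart-Seq2 RNA-seq, each from a different mouse within its tissue according to the series' design text, with 5 tumors and 7 spleens from the IgG2a arm and 7 tumors and 8 spleens from the αPD1 + αGITR arm. Some libraries share a label number, such as the 4 IgG2a spleens numbered 79, and what the number stands for is not given. The study's own description counts fewer animals per arm than there are splenic libraries, so whether each splenic library is an independent mouse is not settled, and p-values measure the spread between these libraries.

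Values are TPM (transcript abundances scaled for length and for the library total), which keep no read depth. The libraries differed widely. Features above 1 TPM numbered 7702 to 17460 per library, and the 10 most abundant features took 31.9% to 78.3% of TPM. Foxp3, which encodes the defining Treg cell transcription factor, was above 0 in all 27 libraries, with mean TPM of 176, 310, 170 and 167 in GBM IgG2a, GBM αPD1 + αGITR, spleen IgG2a and spleen αPD1 + αGITR, whereas group means of the CD8 T cell markers were 1.19 to 3.03 TPM for Cd8a and 2.83 to 11.5 TPM for Cd8b1, the latter highest in GBM αPD1 + αGITR. The GBM IgG2a library tumor_369_a stood apart, with 7702 features above 1 TPM and 13 members above 10 TPM against 35 to 40 in the other GBM IgG2a libraries. It and the 4 splenic libraries whose 10 most abundant features took over 70% of TPM (79_a and 79_d after IgG2a, 70_a and 70_b after αPD1 + αGITR) are called the thin libraries here. Results of the members that rest on them are also given without them, while lists of other genes are given only with them kept.

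All but a few members were expressed at readable levels. In TPM, Psme1, the α subunit of the 11S cap, had the highest median of all members in each of the 4 groups, at 326 in GBM IgG2a, 444 in GBM αPD1 + αGITR, 222 in spleen IgG2a and 135 in spleen αPD1 + αGITR. Psme2, the β subunit of the same cap, lies 5911 bases from it on chromosome 14 and had medians of 203, 217, 50.8 and 98.0 TPM in the same order. The 2 other activators were scarce, since Psme4, which encodes the PA200 cap, reached medians of at most 2.58 TPM and Psme3, a nuclear 11S subunit, at most 8.69 TPM.

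In the 20S core, 14 of the 16 genes had a mean TPM above 10 over all libraries. The exceptions were the tissue-restricted variants Psma8, a testis α subunit that was listed at 0 in 19 of 27 libraries, and Psmb11, the β subunit of the thymus form, with a mean of 2.27 TPM. Among the 3 catalytic genes, Psmb5 (chymotrypsin-like activity) averaged 89.7 TPM and Psmb6 (caspase-like activity) 62.4 TPM, against 13.6 TPM for Psmb7 (trypsin-like activity), although the protein complex holds them in equal number. The structural β genes Psmb4 and Psmb1 averaged 128 and 81.5 TPM, and the highest α ring means were 180 TPM for Psma3 and 113 TPM for Psma7.

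The 19S genes lay closer together. The 6 ATPase genes of the unfolding ring averaged 30.3 to 59.2 TPM, and the 11 non-ATPase genes 24.5 TPM (Psmd12) to 78.7 TPM (Psmd3). Genes for factors that build the particles but leave them, together with Psmf1, which encodes PI31, a proteasome-binding protein first described as an inhibitor, averaged 6.0 TPM (Psmd10) to 20.9 TPM (Psmf1). Of all 45 members, 27 were above 0 in all 27 libraries. Psma8, Psmb11, Psmd10 and Psme4 stayed at or below a mean of 10 TPM in every group and were not tested, so 41 members were tested in at least 1 comparison and 39 in all 5.

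**Figure D1:**
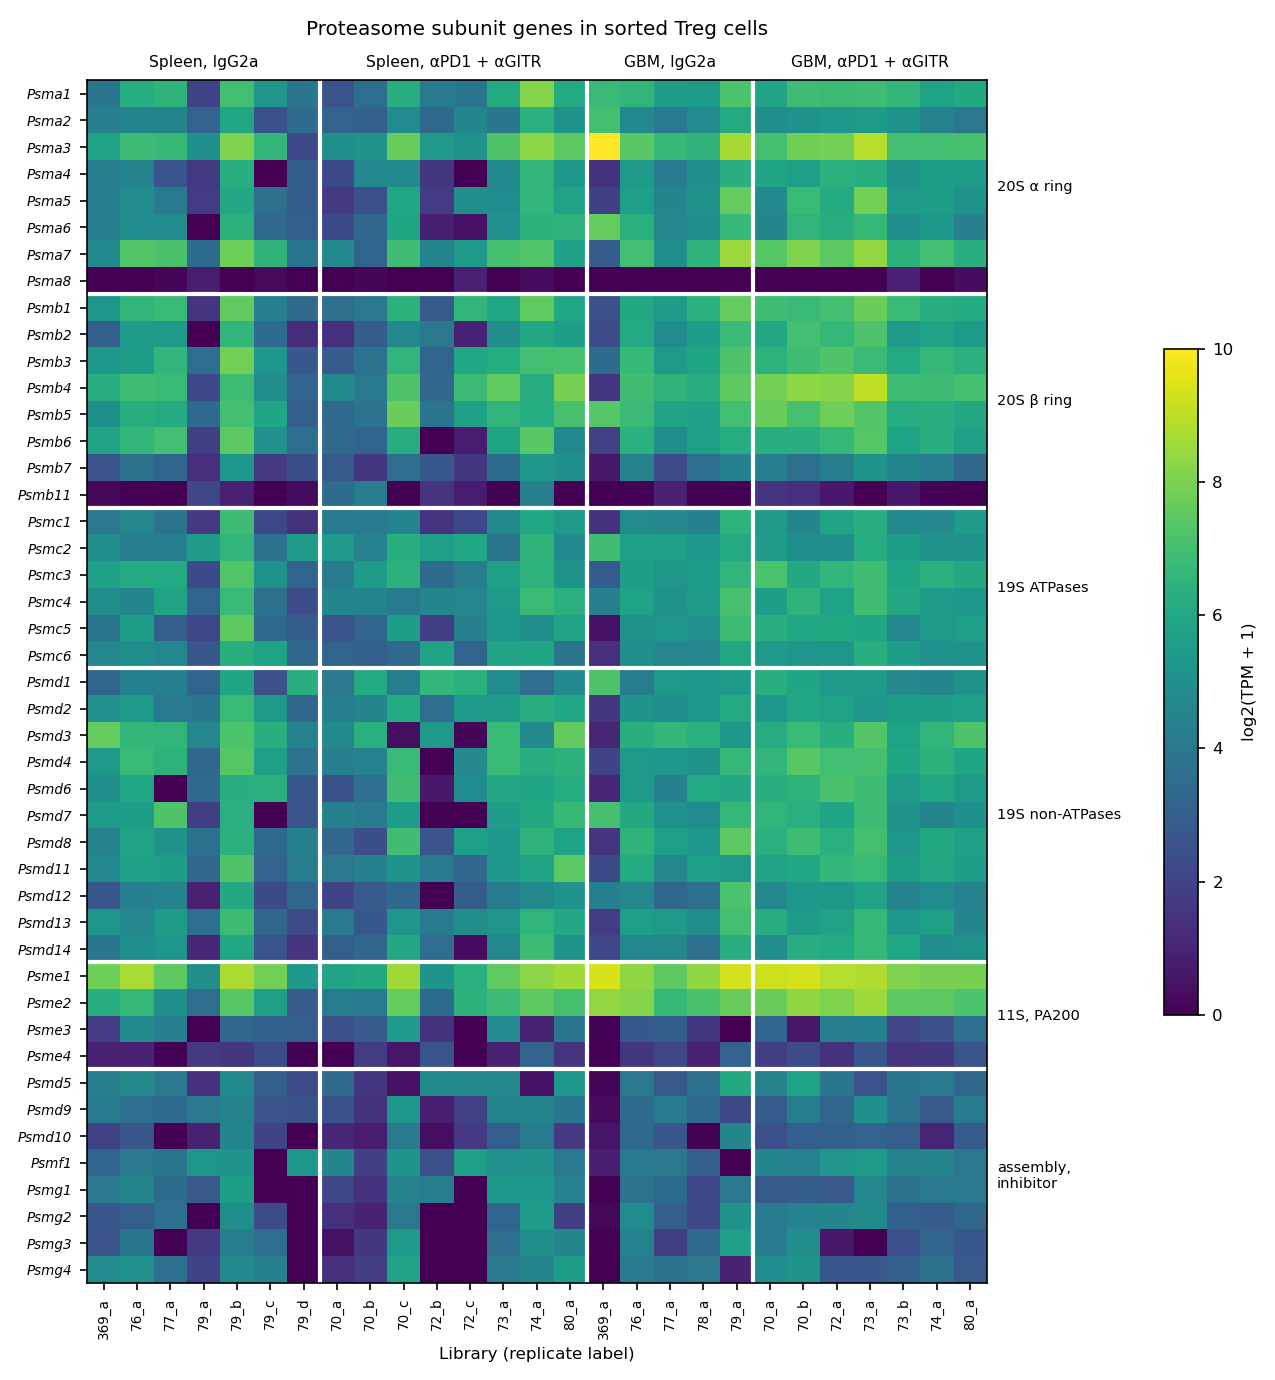
Each row is 1 of the 45 members, ordered by class, each column 1 of the 27 libraries, and the color is log2(TPM + 1). The Psme1 row is bright in nearly all columns, the Psma8 row is dark throughout, and the GBM IgG2a column tumor_369_a mixes very high values (Psma3, 999 TPM) with very low ones (Psmb4, 1.96 TPM).

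Summed over its genes, each particle spanned a wide range within each group, with overlap between groups. The 20S core summed to 1254 ± 675 TPM (SD, n = 5) in GBM IgG2a, 1483 ± 678 TPM (n = 7) in GBM αPD1 + αGITR, 691 ± 631 TPM (n = 7) in spleen IgG2a and 772 ± 624 TPM (n = 8) in spleen αPD1 + αGITR. For the regulatory particle the sums were 1494 ± 597, 1778 ± 528, 1015 ± 769 and 1000 ± 600 TPM in that order. The ratio of both sums was 0.805 ± 0.207, 0.810 ± 0.151, 0.598 ± 0.221 and 0.672 ± 0.252, so the spread within groups exceeded the differences between the groups of 1 tissue. Taken gene by gene, the mean TPM was highest in GBM αPD1 + αGITR for 30 of the 45 members, in GBM IgG2a for 11, in spleen αPD1 + αGITR for 4 and in spleen IgG2a for 0. The same count is not given over all features. Their median log2 difference also put GBM αPD1 + αGITR higher, by 0.62 over GBM IgG2a and 0.95 over spleen αPD1 + αGITR.

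**Figure D2:**
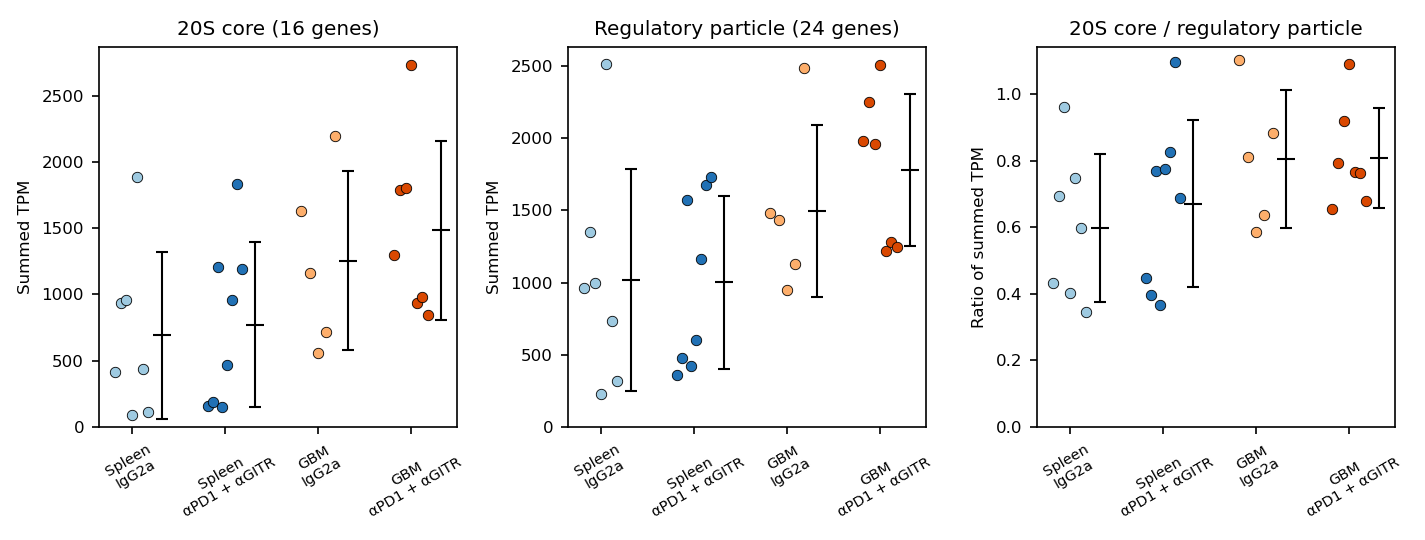
Points are single libraries, shown as summed TPM of the 20S core genes, summed TPM of the regulatory particle genes, and the ratio of both, and bars give the mean ± SD of each group. The 3 lowest 20S sums among treated spleens lie at 154 to 190 TPM, whereas the 7 treated GBM libraries lie at 847 to 2735 TPM.

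Transcription of proteasome genes can be driven by Nfe2l1 (Nrf1), a factor that binds the antioxidant response element, and the core of this element, TGACNNNGC, was looked for on both strands in promoters of 300 bases, from 250 bases before to 50 after the start site. RefSeq promoters (GRCm38.p6) matched 37 of the 45 members. Of these, 6 (16.2%) held the core, beside 14.0% of all 27025 genes with a promoter, and the CCAAT box, searched as CCAAT on both strands, was present in 13 (35.1%) beside 41.1% of all genes. Both shares of the members were near those of all genes. The 3 promoters below belong to members whose values are given in full and that hold the core before the start site; each shows the 250 bases before it, 5′ to 3′ on the strand of the gene, with the match in capitals (Psmb5, chr14:54617996-54618245, minus strand; Psmb6, chr11:70525107-70525356, plus strand; Psmd12, chr11:107479278-107479527, plus strand). The match starts 47 bases before the start site in Psmb5 and 9 bases before it in Psmb6, whereas in Psmd12 it lies on the opposite strand and starts 247 bases before it.
Psmb5: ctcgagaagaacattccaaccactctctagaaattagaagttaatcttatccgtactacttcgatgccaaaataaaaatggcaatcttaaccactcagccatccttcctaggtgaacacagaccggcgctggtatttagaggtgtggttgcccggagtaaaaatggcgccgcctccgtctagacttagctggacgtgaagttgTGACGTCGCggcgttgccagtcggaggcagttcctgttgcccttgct
Psmb6: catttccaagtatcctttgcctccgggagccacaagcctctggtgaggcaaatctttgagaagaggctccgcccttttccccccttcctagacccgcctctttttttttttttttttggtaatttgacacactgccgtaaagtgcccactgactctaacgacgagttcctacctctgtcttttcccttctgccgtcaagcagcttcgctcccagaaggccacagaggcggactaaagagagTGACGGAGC
Psmd12: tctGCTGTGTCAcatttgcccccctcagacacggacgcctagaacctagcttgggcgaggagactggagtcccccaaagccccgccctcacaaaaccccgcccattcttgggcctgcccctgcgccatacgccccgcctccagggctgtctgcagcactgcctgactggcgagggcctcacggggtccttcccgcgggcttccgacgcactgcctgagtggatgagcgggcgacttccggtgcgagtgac

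The first comparison asked what αPD1 + αGITR did in Treg cells of the tumor. Of 40 members tested, 33 (82.5%) were higher after αPD1 + αGITR, beside 71.6% of all features. The study's threshold (more than 2-fold and p under 0.05, read here as unadjusted) was passed by 6 members, all of them higher. This is 15% of the members, and 16.8% of all 7848 features tested were called higher by the same rule, so the members' share was near the background. No member was called lower, beside 4.87% of all features. With limma and Benjamini-Hochberg adjustment over all features, 0 members passed an adjusted p of 0.05, as did 0.0% of all features; 6 members had an unadjusted p under 0.05, and an ordinary linear model also gave 0 adjusted calls. The members' median log2 fold change was 0.95 beside 0.62 over all features. For no member were the groups free of overlap, whereas 1.77% of all features had all treated libraries above all controls. In bulk libraries, fewer cells of a type and less RNA per cell cannot be told apart.

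The 6 members past the study's threshold came from 4 classes. Psmf1 was 0.84, 16.6, 14.5, 6.88 and 0 TPM in the GBM IgG2a libraries tumor_369_a, 76_a, 77_a, 78_a and 79_a, and 15.2 to 42.2 TPM (median 22.2) after αPD1 + αGITR. Of the 7 treated libraries, 6 lay above all controls, and 4 of 5 controls lay below all treated libraries. Its log2 fold change was 2.29 (SE 0.73, limma adjusted p = 0.118, two-sided exact permutation p = 0.00253), and the adjusted p ranged from 0.0761 to 0.475 over the alternatives.

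Psmd4, a ubiquitin receptor of the 19S particle, was 3.10, 40.3, 38.9, 35.3 and 98.9 TPM in the same controls and 59.2 to 168 TPM (median 94.6) in the treated tumors. Only control 79_a reached the treated range. The log2 fold change was 1.70 (SE 0.63, limma adjusted p = 0.154, exact permutation p = 0.0114). Psmb4, a structural subunit of the β ring, was 1.96, 121, 89.6, 74.8 and 180 TPM in controls and 116 to 528 TPM (median 239) after treatment. Here 2 controls, 76_a and 79_a, lay within the treated range. It differed by 2.00 on the log2 scale (SE 0.77, limma adjusted p = 0.163, exact permutation p = 0.0189). Psmd14, the deubiquitinase that removes ubiquitin chains from substrates, was 3.32, 24.3, 24.7, 11.97 and 73.3 TPM in controls and 29.2 to 101 TPM (median 61.8) after treatment, with control 79_a again inside the treated range. Its log2 fold change was 1.45 (SE 0.64, limma adjusted p = 0.197, exact permutation p = 0.0417).

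The other 2 were Psmd6, a lid subunit of the 19S particle, at 1.64 (SE 0.72, limma adjusted p = 0.198), and Psmc3, an ATPase of the unfolding ring, at 1.24 (SE 0.56, limma adjusted p = 0.206), both as log2 fold changes. In each of these 6 genes except Psmf1 the lowest control was tumor_369_a. Without tumor_369_a, 1 member, Psmf1, passed the study's threshold (log2 fold change 1.91, limma adjusted p = 0.189), 2.5% of the members beside 10.9% of all features, and the members' median of 0.30 lay below the 0.36 of all features. With 79_a left out instead the count was 17 (43.6% of members beside 20.9% of all features), and without 76_a it was 10 (25% beside 19.3%). It was 3 (7.5%) without the treated library 72_a or 73_a, beside 13.7% and 14.7% of all features. Control 79_a held 4371 TPM of macrophage and microglia markers against 50.1 to 300.6 TPM in the other GBM controls, and its member sum of 4787 TPM was the highest of them. Treated tumor 73_a held 1852 TPM of these markers, beside a median of 115 TPM over the treated tumors. The part of these markers in the counts was not tested. Of 18 proliferation genes, 8 passed as higher after αPD1 + αGITR in GBM, with sums of 346 to 1193 TPM per library in controls and 600 to 2245 TPM after treatment, and their part in the members' values was not tested.

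Of the core, 1 β ring gene (Psmb4) and no α ring gene passed the threshold. The 7 β ring genes tested were all higher after αPD1 + αGITR, and their median was 1.12 on the log2 scale, while 4 of 7 α ring genes were higher, with a median of 0.12 that turned to -0.57 with TMM-type factors and -0.04 with quantile normalization (β ring 0.53 and 0.46). In tumor_369_a the α ring summed to 1444 TPM and the β ring to 190 TPM, and Psma3, Psme1 and Psme2 held 64.5% of all member TPM. Without that library the medians were 0.51 for the β ring and 0.21 for the α ring. The 3 catalytic genes did not pass the threshold. Psmb5 was 165, 113, 56.0, 52.2 and 124 TPM in controls and 64.1 to 220 TPM (median 136) after treatment, a log2 difference of 0.36 (SE 0.48, limma adjusted p = 0.638) with broad overlap. Psmb6 was 2.79, 82.8, 30.7, 48.5 and 72.7 TPM in controls and 50.8 to 163 TPM (median 76.1) after treatment, a log2 difference of 1.30 (SE 0.66, limma adjusted p = 0.242). Psmb7 was 0.59, 21.1, 3.93, 10.99 and 20.3 TPM in controls and 8.90 to 33.2 TPM (median 18.3) after treatment, a log2 difference of 1.12 (SE 0.69, limma adjusted p = 0.334). Controls 76_a and 79_a lay inside the treated range for both genes, as did 78_a for Psmb7, and the other controls lay below it.

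**Figure D3:**
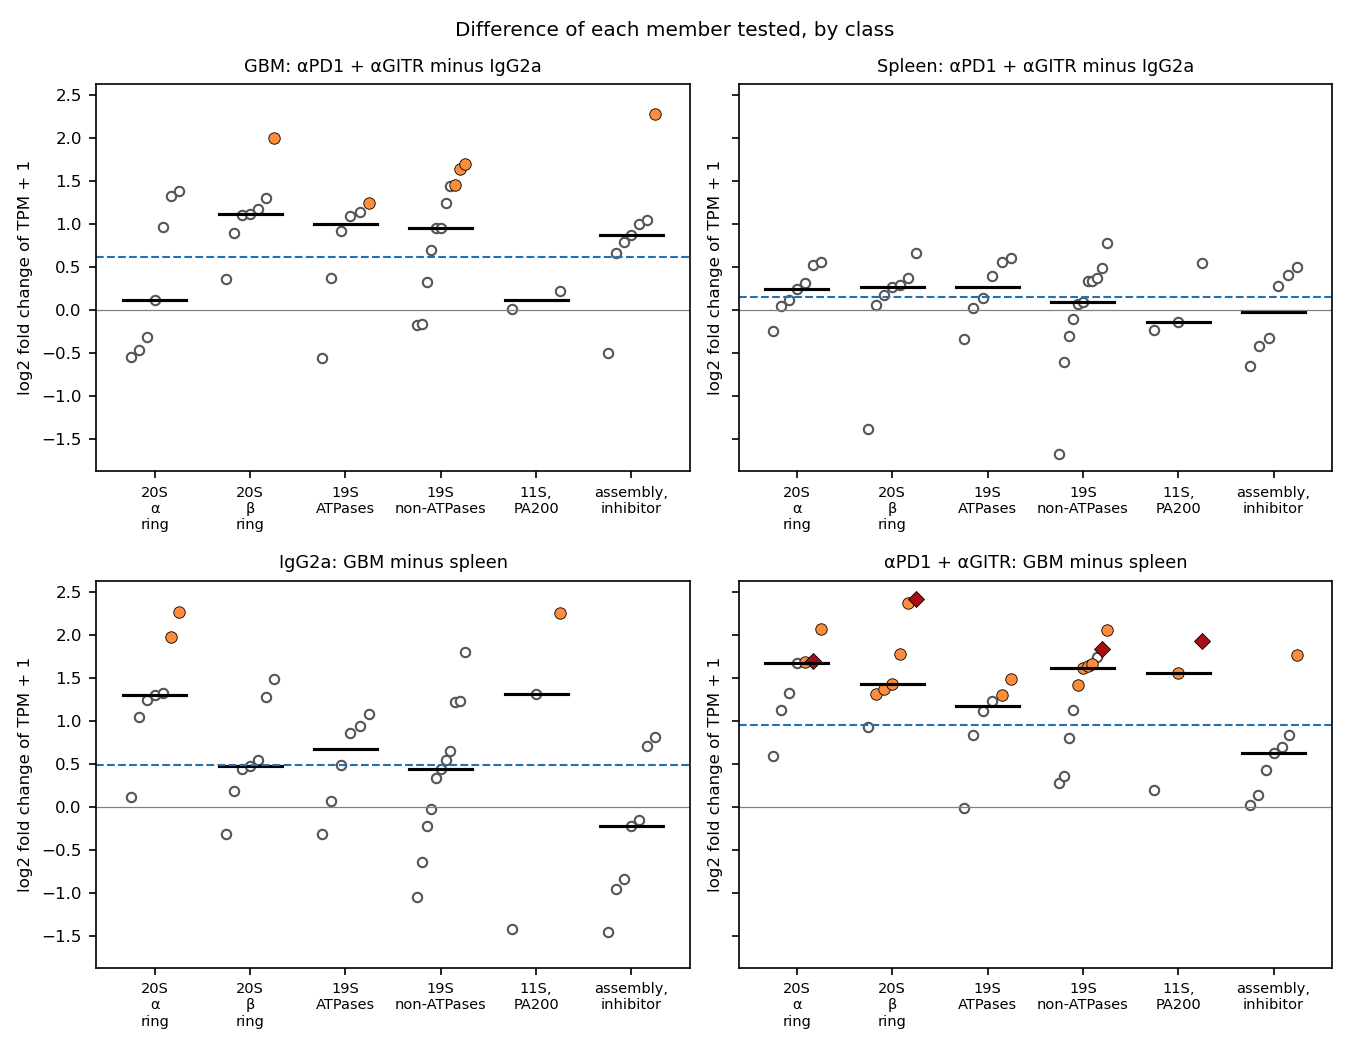
Each point is 1 member tested, placed by class, with its log2 fold change of TPM + 1 in 4 comparisons; filled circles passed the study's threshold, diamonds also an adjusted p of 0.05, bars are class medians and the dashed line is the median of all features tested. In GBM the α ring median of 0.12 lies below the dashed line at 0.62, and in treated mice 40 of 41 members lie above 0, as do 77.6% of all features tested.

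In the spleen the same treatment gave no calls among the members. Of 40 tested, 28 (70%) were higher and 12 lower in treated mice, beside 58.1% of all features higher. The members' median difference was 0.21 on the log2 scale beside 0.15 over all features. This direction did not hold throughout, and the median was -0.14 without 79_a (17 of 40 higher), -0.05 without 79_d, -0.02 without treated 74_a, -0.10 without the thin libraries (19 of 41 higher) and -0.29 with library weights (12 of 40 higher). No member passed the study's threshold, which 1.49% of all 6634 features passed as higher and 1.04% as lower. With limma, 0 members had an unadjusted p under 0.05 and 0 passed the adjusted threshold, as did 0.0% of all features and 0 members in an ordinary linear model.

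The members with the lowest p in the spleen differed in direction. Psmd3, a lid subunit of the 19S particle, ranged from 21.2 to 197 TPM (median 92.2) after IgG2a and from 0.10 to 190 TPM (median 33.5) after αPD1 + αGITR. The treated libraries 72_c (0.10 TPM) and 70_c (0.29 TPM) lay far below the rest, and the other values overlapped. The log2 difference was -1.67 (SE 0.94, limma adjusted p = 1.00, exact permutation p = 0.196). Psmb6 ranged from 2.71 to 179 TPM (median 56.5) and from 0 to 166 TPM (median 18.3), a log2 difference of -1.38 (SE 0.99, limma adjusted p = 1.00). It was listed at 0 in 72_b and at 0.69 TPM in 72_c, and the other treated libraries overlapped the controls. Psmd1, the scaffold of the 19S base, ranged from 4.64 to 76.9 TPM (median 19.5) and from 10.8 to 97.2 TPM (median 27.5), a log2 difference of 0.78 (SE 0.71, limma adjusted p = 1.00). Psmc4, an ATPase, ranged from 4.17 to 110 TPM (median 23.0) and from 15.5 to 112 TPM (median 23.3), a log2 difference of 0.61 (SE 0.70, limma adjusted p = 1.00). In both genes the groups overlapped. Without the thin libraries, Psmb6 and Psmd3 passed the study's threshold as lower after αPD1 + αGITR, 2 of 41 members beside 202 of 7182 features.

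Whether the response differed between tissues was tested as an interaction over all 4 groups. Of 41 members tested, 31 (75.6%) had a more positive treatment difference in GBM than in spleen, as did 63.5% of all 8687 features. The members' median was 0.83 on the log2 scale beside 0.45 over all features. Without tumor_369_a, 26 of 41 were more positive and the median was 0.22 beside 0.23 over all features, and without the thin libraries it was 0.46 beside 0.49, so the members did not stand above all features in either fit. With single libraries left out the median ranged from 0.22, without tumor_369_a, to 1.26 beside 0.59 over all features, without GBM 79_a. Psmd3 alone passed the study's threshold, 1 member beside 6.8% of all features called in this direction and 5.35% in the other. With limma, 0 members passed the adjusted threshold, as did 0.0% of all features; 1 member had an unadjusted p under 0.05, and an ordinary linear model gave 0 calls by either rule.

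In the limma fit of the interaction, 1 of 2 neuron and glia markers tested passed as lower (Mbp at -2.42, beside Gfap at -1.84), and 0 of 9 macrophage and microglia markers passed, with Lyz2 at -2.86 and Csf1r at -2.46. The part of these markers in the members' values was not tested.

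For Psmd3 the treatment difference was 1.44 (SE 0.75) in GBM and -1.67 (SE 0.94) in spleen on the log2 scale, and the interaction was 3.11 (SE 1.34, limma adjusted p = 0.356). In the GBM controls Psmd3 was 1.13, 76.2, 98.0, 82.0 and 38.7 TPM, with tumor_369_a lowest, and treated tumors ranged from 54.6 to 159 TPM (median 93.3). Psmd3 was near or below 1 TPM in 3 libraries, tumor_369_a of GBM IgG2a and 70_c and 72_c of treated spleens, and above 20 TPM in all others. Without tumor_369_a, or without 72_c, 0 members passed the study's threshold, and over all single libraries left out the interaction of Psmd3 lay between 2.10 and 3.55. The interaction terms next in order of p were 2.69 (SE 1.35, limma adjusted p = 0.424) for Psmb6, 2.30 (SE 1.19, limma adjusted p = 0.435) for Psmd4 and 1.88 (SE 1.12, limma adjusted p = 0.515) for Psmf1.

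**Figure D4:**
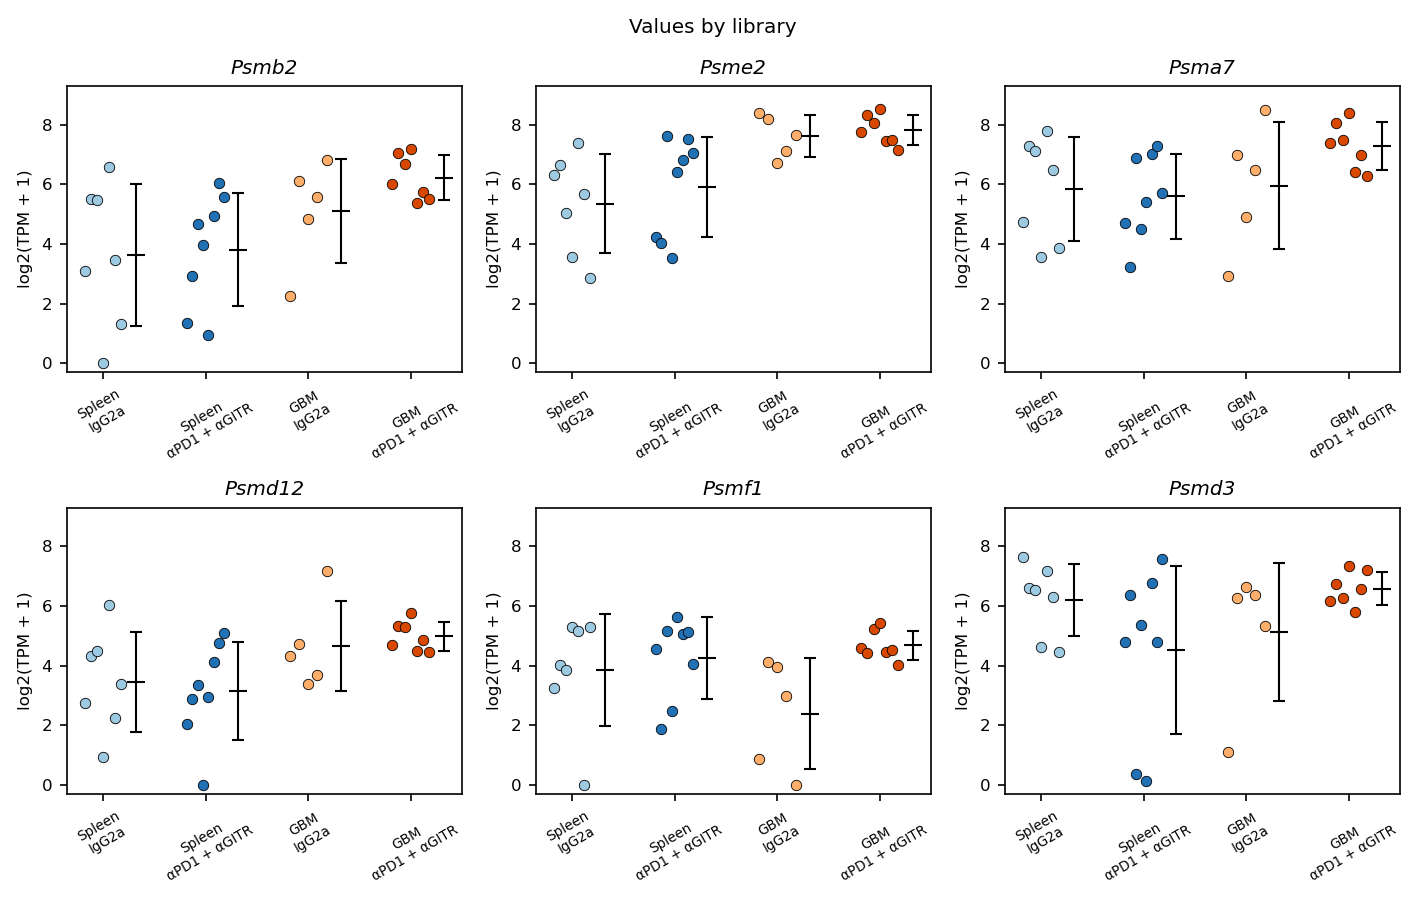
Values of 6 members in each library as log2(TPM + 1), with bars for the mean ± SD of each group. The 4 members past the adjusted threshold in treated mice (Psmb2, Psme2, Psma7 and Psmd12) show a narrow GBM αPD1 + αGITR group above a broad spleen group with overlap, and Psmd3 shows single libraries near 0 in 2 groups.

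The comparison of tissues after IgG2a addressed how GBM Treg cells differ from splenic ones without treatment. Of 41 members tested, 29 (70.7%) were higher in GBM, beside 66.1% of all features. The members' median log2 difference was 0.54 beside 0.48 over all features. Single libraries decided this value, since the median was -0.0035 beside 0.36 over all features without GBM 79_a (19 of 39 higher), the library with the high macrophage and microglia markers, and 1.11 beside 0.72 without tumor_369_a (36 of 41 higher). The study's threshold was passed by 3 members as higher (7.32%), beside 7.63% of all 7380 features, and by none as lower, beside 2.3%. No member passed the adjusted threshold in limma, beside 0.488% of all features called higher; 3 members had an unadjusted p under 0.05, and an ordinary linear model gave 0 adjusted calls. The ordinary model and the block each gave 1 threshold call (2.44% of members beside 7.48% and 6.21% of all features). The α ring genes were higher in GBM in 7 of 7 cases, with a median of 1.30, and the assembly factors and inhibitor in 2 of 7, with a median of -0.22. Without tumor_369_a the assembly class turned to 0.45 (4 of 7 higher), and without the thin libraries the α ring median was 0.60 (7 of 7 higher) and that of the assembly class -0.16.

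Psme2 had the lowest p. It was 334, 289, 104, 138 and 203 TPM in GBM and 6.30 to 167 TPM (median 50.8) in spleen. Of the 7 splenic libraries, 6 lay below all GBM libraries, and 79_b overlapped them. The log2 difference was 2.25 (SE 0.81, limma adjusted p = 0.296, exact permutation p = 0.0177). The α ring gene Psma6 was 198, 80.2, 24.9, 30.5 and 103 TPM in GBM and 0 to 84.8 TPM (median 17.2) in spleen, a log2 difference of 2.26 (SE 0.92, limma adjusted p = 0.379, exact permutation p = 0.0417). Psma3, of the same ring, was 999, 175, 103, 90.7 and 400 TPM in GBM and 3.58 to 266 TPM (median 97.1) in spleen, a log2 difference of 1.97 (SE 0.87, limma adjusted p = 0.434, exact permutation p = 0.0694). In both α ring genes tumor_369_a was the highest GBM library and 3 GBM libraries lay within the splenic range. Without the thin libraries 1 of these 3, Psme2, passed the study's threshold.

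Psmd7, the lid partner of the deubiquitinase, was 133, 65.8, 33.2, 27.6 and 101 TPM in GBM and 0 to 151 TPM (median 43.0) in spleen, a log2 difference of 1.80 (SE 1.00, limma adjusted p = 0.559). All 5 GBM libraries lay within the splenic range. For the catalytic genes, whose GBM values are given above, the splenic ranges were 7.08 to 127 TPM (median 57.7) for Psmb5, 2.71 to 179 TPM (median 56.5) for Psmb6 and 1.64 to 37.1 TPM (median 4.85) for Psmb7. The log2 differences were 1.28 (SE 0.80, limma adjusted p = 0.604) for Psmb5, -0.32 (SE 0.94, limma adjusted p = 0.908) for Psmb6 and 0.18 (SE 0.93, limma adjusted p = 0.951) for Psmb7. No catalytic gene passed the threshold, and the sign of the last 2 turned when single libraries were left out.

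After αPD1 + αGITR the tissues differed most. Of 41 members tested, 40 (97.6%) were higher in GBM Treg cells, beside 77.6% of all features. The members' median log2 difference was 1.33 beside 0.95 over all features. The study's threshold was passed by 20 members as higher (48.8%), beside 33.9% of all 7506 features, and by none as lower, beside 6.31%. They were 9 of 14 genes of the 20S core, 10 of 22 of the regulatory particle and 1 of 5 Psmf and Psmg genes (Psmg2). At an adjusted p under 0.05 in limma, 4 members were higher (9.76%), fewer in proportion than the 15.8% of all features. An ordinary linear model gave 12 members past the study's threshold (29.3% beside 30.2% of all features) and 0 adjusted calls. The fit with the label number as a block gave 10 (24.4% beside 26.5% of all features) and 0. No member had all GBM libraries above all splenic ones, as 2.96% of all features did.

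Psmb2, a structural β ring subunit, rose in GBM over spleen by the largest step among the members. It ranged from 40.7 to 146 TPM (median 63.4) in treated GBM and from 0.95 to 64.8 TPM (median 19.6) in treated spleens. Of the 8 splenic libraries, 6 lay below all GBM libraries. The log2 difference was 2.42 (SE 0.69, limma adjusted p = 0.0244, exact permutation p = 0.00575), and the adjusted p ranged from 0.00565 to 0.154 over the alternatives.

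Psme2 ranged from 143 to 367 TPM (median 217) in GBM and from 10.6 to 197 TPM (median 98.0) in spleen, with 6 of 8 splenic libraries below all GBM libraries. Its log2 difference was 1.92 (SE 0.61, limma adjusted p = 0.0356, exact permutation p = 0.00855), with an adjusted p between 0.00543 and 0.213 over the alternatives. Psma7, an α ring subunit, ranged from 76.1 to 335 TPM (median 166) in GBM and from 8.29 to 154 TPM (median 46.8) in spleen, where 3 libraries overlapped the GBM range. It differed by 1.69 (SE 0.59, limma adjusted p = 0.0484, exact permutation p = 0.0152), with an adjusted p between 0.0148 and 0.253 over the alternatives. Psmd12, a lid subunit of the 19S particle whose promoter is shown above, ranged from 20.8 to 53.4 TPM (median 28.3) in GBM and from 0 to 33.1 TPM (median 7.98) in spleen, where 2 libraries overlapped. The log2 difference was 1.84 (SE 0.64, limma adjusted p = 0.0484, exact permutation p = 0.00839), with an adjusted p between 0.0228 and 0.233.

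Psme1, next in order of p, had a log2 difference of 1.55 (SE 0.54, limma adjusted p = 0.05004, just above the threshold). The catalytic genes differed by 2.36 (SE 0.84, limma adjusted p = 0.0532) for Psmb6, 1.37 (SE 0.63, limma adjusted p = 0.106) for Psmb5 and 0.92 (SE 0.60, limma adjusted p = 0.237) for Psmb7. By class, the study's threshold was passed by 6 of 7 β ring genes, 3 of 7 α ring genes, 6 of 11 non-ATPase genes, 2 of 6 ATPase genes, 2 of 3 activators and 1 of 7 assembly factors and inhibitor. The immunoproteasome genes Psmb8, Psmb9 and Psmb10, which replace the 3 catalytic subunits after interferon, also rose, by 2.33 (SE 0.56), 2.37 (SE 0.61) and 1.67 (SE 0.42) on the log2 scale (limma adjusted p = 0.0102, 0.0142 and 0.0135, with the thin libraries kept). As summed TPM they made up 71.0 ± 6.43% (SD, n = 7) of both catalytic sets in spleen IgG2a, 74.1 ± 8.96% (n = 8) in spleen αPD1 + αGITR, 78.1 ± 4.97% (n = 5) in GBM IgG2a and 82.2 ± 4.64% (n = 7) in GBM αPD1 + αGITR.

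These counts rested on the scale and on the libraries kept. Without the thin libraries 9 of 41 members (22.0%) passed the study's threshold beside 24.6% of all features, all 9 among the 20, and 0 passed the adjusted threshold. Single libraries moved the count too, to 10 without GBM 73_a (24.4% of members beside 30.1% of all features), 13 without GBM 72_a (31.7% beside 29.9%) and 11 without splenic 70_b (26.8% beside 30.2%). It was 12 (29.3%) without splenic 70_a or 72_b, beside 28.5% and 28.9% of all features. GBM 73_a held the most macrophage and microglia markers of the treated tumors (1852 TPM) and the highest member sum of all libraries (5338 TPM). The part of these markers in the counts was not tested. With TMM-type factors, which lowered the median of all features from 0.95 to 0.22, 3 of 41 members (7.32%) passed beside 12.1% of all features, and the members' median was 0.52. The members' median exceeded that of all features by 0.37 as deposited, 0.30 on the rescaled values, 0.22 without splenic 70_b, 0.24 without splenic 72_b and 0.12 without the thin libraries, and by 0.59 with quantile normalization, 0.51 without splenic 74_a, 0.50 without splenic 70_c and 0.48 with a pseudocount of 10. With no filter on low values it was 1.36, where the median of all 42667 features was -0.07. In GBM the same factors lowered the median of all features from 0.62 to 0.05 and that of the members from 0.95 to 0.39.

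**Figure D5:**
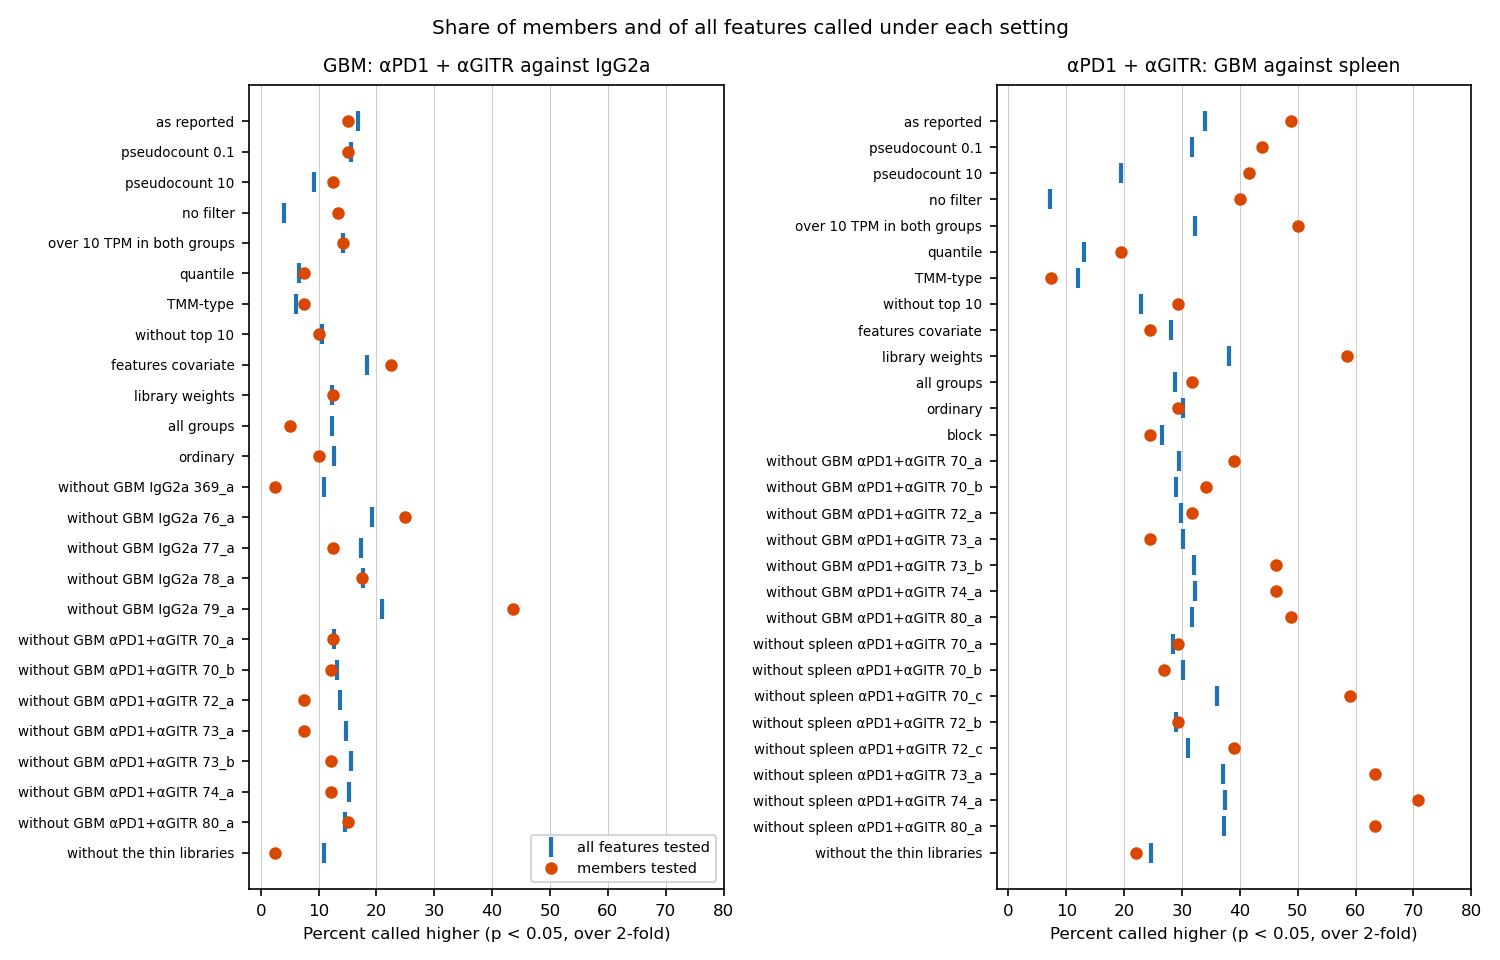
For each setting on the vertical axis, the dot is the percentage of members tested, and the vertical tick that of all features tested, called higher at an unadjusted p under 0.05 and more than 2-fold; "block" is the fit with the label number as a block and "ordinary" the linear model without moderation. Between the tissues of treated mice the share of members lies between 7.32% (TMM-type factors, 12.1% of all features) and 70.7% (without splenic 74_a, 37.4% of all features).

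Markers of other cells and of cycling cells moved with the tissue difference. Of 12 macrophage and microglia markers, 7 were tested in treated mice and 4 passed the study's threshold as higher in GBM, while Lyz2 and Csf1r had log2 differences of -1.15 and -0.39. The list's summed level was 36.1 to 1852 TPM per library in GBM αPD1 + αGITR, 14.2 to 263 TPM in spleen αPD1 + αGITR, 50.1 to 4371 TPM in GBM IgG2a and 21.6 to 66.9 TPM in spleen IgG2a. Of the defining markers, Adgre1 was at 0 in 4 of 7 GBM and 5 of 8 splenic libraries of treated mice, and C1qa in 0 and 2. Of 18 proliferation genes, 10 passed as higher in treated GBM, with sums of 600 to 2245 TPM in GBM and 141 to 1665 TPM in spleen. In mice given IgG2a, the threshold was passed as higher in GBM by 2 of 9 macrophage and microglia markers, 4 of 7 Treg markers, 3 of 17 proliferation genes and both neuron and glia markers tested (Mbp at 2.99 and Gfap at 2.34 on the log2 scale). The 8 neuron and glia markers summed to 17.6 to 171 TPM in GBM IgG2a and 2.89 to 31.9 TPM in spleen IgG2a, and Gfap was at 0 in 1 of 5 and 4 of 7 libraries. The 7 Treg markers were summed to 1486 to 2409 TPM in treated GBM and 69.0 to 1080 TPM in treated spleens, without overlap, and 7 of 7 passed between these groups. The part of these differences in the members' values was not tested.

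Genes that work with the proteasome but lie outside the rule were read, with the thin libraries kept, from 4 lists. Their counts stand beside the shares of all features called higher given above, 33.9% between the tissues of treated mice, 16.8% for treatment in GBM, 7.63% between the tissues after IgG2a and 6.8% in the interaction. Of 12 other proteasome parts and factors in the table, 9 were tested in treated mice, 6 passed the study's threshold as higher in GBM and 0 as lower. Txnl1, a thioredoxin-like protein of the 19S particle, rose by 2.67 (SE 0.74, limma adjusted p = 0.0200), Zfand5, an activator of the 26S proteasome, by 2.21 (SE 0.68, limma adjusted p = 0.0327) and Sem1, a small 19S subunit, by 1.85 (SE 0.63, limma adjusted p = 0.0444), all as log2 differences. Zfand5 was also the 1 of 9 tested that passed the study's threshold in GBM after treatment, at 2.99 (SE 0.78, limma adjusted p = 0.0977).

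Of the genes that control proteasome transcription, 3 of 4 tested passed as higher in GBM of treated mice. Ngly1, the enzyme that activates Nfe2l1 by removing its sugars, rose by 2.42 (SE 0.80, limma adjusted p = 0.0412) and Mafg, a small partner protein of Nfe2l1, by 1.58 (SE 0.55, limma adjusted p = 0.0496), and Nfe2l1 itself was 1.82 higher (SE 0.67, limma adjusted p = 0.0576). In the interaction 1 of 9 proteasome parts and factors (Zfand5 at 2.24), 0 of 7 shuttle factors and 0 of 7 ubiquitin and E1 genes passed the study's threshold. Of the transcription genes 2 of 5 passed, Ngly1 at 3.14 (SE 1.23, limma adjusted p = 0.327) and Nfe2l1 at 2.36 (SE 1.04, limma adjusted p = 0.365). In GBM Mafg was the 1 of 5 that passed after treatment, at 2.16 (SE 0.69, limma adjusted p = 0.119), and in spleen 0 of 4 passed. Of the shuttle factors and p97, which bring ubiquitinated proteins to the proteasome, 1 of 7 passed in treated mice, Rad23b at 1.54 (SE 0.56, limma adjusted p = 0.0551), and of ubiquitin and E1 genes 4 of 7, among them Uba3 at 2.00 (SE 0.61, limma adjusted p = 0.0315) and Ubb at 1.65 (SE 0.58, limma adjusted p = 0.0498). In GBM after treatment, 1 of 7 shuttle factors passed, Faf2 at 1.71 (SE 0.70, limma adjusted p = 0.177), and 0 of 7 ubiquitin and E1 genes. None of the genes on these 4 lists passed as lower in any comparison. After IgG2a, the numbers past the threshold as higher in GBM were 1 of 8, 0 of 4, 0 of 6 and 1 of 7 in the same order of lists, and in spleen after treatment 0 genes passed.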

How the data were processed

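RNA-seq libraries were made by Smart-Seq2 and Nextera XT and sequenced on a NextSeq500, and the authors used Tophat for alignment against mm10 and RSEM for TPM. Versions are not given in the sources used here. The deposited table holds TPM plus 1, another unit than the TPM that was planned for, so 1 was taken from each value. TPM keep no depth, and precision is therefore shown by the spread between libraries. Of 28 value columns, 27 were used. The remaining column has no name and was not assigned, which leaves 1 described splenic library after αPD1 + αGITR out. No 2 libraries held identical values.

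Differences of log2(TPM + 1), the pseudocount being 1, were tested with limma 3.58.1 in R 4.3.3 (lmFit, eBayes with trend) between the 2 groups compared, and the interaction over all 4. Features entered a fit if 1 of its groups averaged over 10 TPM. Two-sided p-values were corrected by Benjamini-Hochberg over all features tested. The study's threshold was more than 2-fold and p under 0.05, taken here as unadjusted, since the sources used here do not say. For single members, mean differences were also put to an exact permutation test (two-sided), whose smallest p is 0.00126 for 5 against 7 libraries and 0.000155 for 7 against 8. Fold changes on this scale understate those of low genes. The tests were checked on simulated data.

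The members and lists were chosen with earlier results of these data known. Values in full are given for the 4 members with the lowest p in each fit and, in 2 comparisons, the catalytic genes. Genes of other lists are given by count and at most 4 examples of lowest p. Of the marker lists, 7 were used. T cell markers passed the study's threshold as higher in 5 of 9 cases between the tissues of treated mice, CD8 T cell markers in 0 of 1, B cell markers in 0 of 1 and neuron and glia markers in 0 of 1. Other settings tried were TMM-type factors (trimming 30% and 5%), quantile normalization, rescaling without the 10 most abundant features, pseudocounts of 0.1 and 10, the filter dropped or applied in every group, library weights, the number of features above 1 TPM as a term, the 4 groups fitted together, an ordinary linear model, the label number as a block and each library left out. Leaving out 5 thin libraries, those with over 70% of TPM in 10 features or under 10000 features above 1 TPM, was chosen after seeing the data.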

Additional observations from a re-analysis of the deposited data

Results flagged for a closer look

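Among 76 groups of library values looked at, 4 held a library far from the others, and chance alone flags about 1 group in 20. In GBM IgG2a, library tumor_369_a was lowest for Psmb4, at 1.57 on the log2(TPM + 1) scale (1.96 TPM, next 74.8 TPM), and for Psmd3, at 1.09 (1.13 TPM, next 38.7 TPM). Psmd4 was 0 in the treated splenic library 72_b (next 18.7 TPM), and Psmf1 was 0 in the splenic IgG2a library 79_c (next 8.56 TPM). The treatment difference of Psmd3 was larger in GBM than in spleen by 3.11 on the log2 scale in the interaction test (SE 1.34, limma unadjusted p = 0.0262, adjusted p = 0.356).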

How the results depend on the processing

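Depth is unknown, so values near 0 cannot be told from losses in library making. Counts of members past the study's threshold moved by over 1.5 times as follows. For treatment in GBM, the 6 higher calls became 3 with quantile normalization, 3 with TMM-type factors, 2 with all groups in 1 fit and 1 without the thin libraries, and 1 (without tumor_369_a) to 17 (without 79_a) with single libraries left out. The shares of all features called higher were 6.64%, 6.1%, 12.4%, 10.9%, 10.9% and 20.9% in the same order. For treatment in spleen, the 0 lower calls became 1 with library weights (beside 156 of 6634 features) and 2 without the thin libraries (background given above), and 0 to 1 (without 80_a, beside 88 of 6638 features) with single libraries left out. For the tissues after IgG2a, the 3 higher calls became 1 with an ordinary model, 1 with a replicate block and 1 without the thin libraries, and 2 to 4 with single libraries left out, and the 0 lower calls 0 to 1 (without splenic 79_c). All features called higher were 7.48% with the ordinary model, 6.21% with the block and 7.31% without the thin libraries. For the tissues after αPD1 + αGITR, the 20 higher calls became 8 with quantile normalization, 3 with TMM-type factors, 12 without the 10 most abundant features, 10 with the features covariate, 13 with all groups in 1 fit, 12 with an ordinary model, 10 with a replicate block and 9 without the thin libraries, and 10 (without GBM 73_a) to 29 (without splenic 74_a) with single libraries left out. All features called higher were 13% with quantile normalization, 12.1% with TMM-type factors, 22.9% without the 10 most abundant features and 28.1% with the covariate. They were 28.8% with all groups in 1 fit, 30.2% with the ordinary model, 26.5% with the block and 24.6% without the thin libraries. Without GBM 73_a they were 30.1%, and without splenic 74_a 37.4%. The 4 adjusted calls became 1 with a pseudocount of 0.1, 7 with 10, 0 without a filter, 2 with the filter in each group, 1 with quantile normalization, 1 without the 10 most abundant features, 19 with library weights, 0 with TMM-type factors, the covariate, all groups in 1 fit, the ordinary model, the block or without the thin libraries, and 0 (without GBM 70_b or 73_a or splenic 70_a) to 13 (without splenic 74_a) with single libraries left out. Over all 7506 features the adjusted higher calls also moved, from 1189 to 631 and 1334 with these pseudocounts and 1981 with library weights. They were 443 with quantile normalization, 263 with TMM-type factors and 731 with the covariate. With all groups in 1 fit they were 666, with the ordinary model 758 and with the block 457. Without splenic 74_a they were 1573 of 7500. For the interaction, the 1 higher call became 2 with TMM-type factors, 3 without the 10 most abundant features, 2 with library weights, 0 with an ordinary model and 2 without the thin libraries, and 0 (without tumor_369_a or splenic 72_c) to 3 with single libraries left out. All features called higher were 4.49%, 6.23%, 8.46%, 6.1% and 7.41% in the same order, and 3.32% without tumor_369_a and 5.74% without 72_c. Directions turned for Psmb5 in GBM treatment with TMM-type factors (-0.33), for Psmb6 between the tissues after IgG2a with single libraries left out (-0.90 to 0.45), and for Psmb7 there with quantile normalization (-0.21), TMM-type factors (-0.16), without the 10 most abundant features (-0.15) and with single libraries left out (-0.16 to 0.79). The members' median turned for treatment in spleen (-0.29 with library weights, -0.10 without the thin libraries, and -0.14 to 0.58 with single libraries left out) and between the tissues after IgG2a (-0.0035 to 1.11 with single libraries left out). For treatment in GBM the α ring median turned from 0.12 to -0.57 with TMM-type factors and -0.04 with quantile normalization. The causes were not tested. Whether the label numbers pair the libraries is not settled. Deviations of GBM and splenic libraries with the same full label correlated between -0.159 and 0.182. Among the GBM libraries 76_a, 79_a and treated 73_a correlated best with a spleen of their own number and the others did not. Between libraries this variable, low correlations cannot show whether a tumor and a spleen came from the same mouse.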
